A study of Mus musculus with 6 samples.

Results

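The collagen chain genes were taken as every gene whose symbol has the form Col, a number, a and a number, after the NCBI gene numbers of the expression table had been matched to mouse symbols. This gave 43 of the 17741 rows in the table. They comprised 11 fibrillar chains, 6 chains of type IV, 6 of type VI, 9 fibril-associated chains, 4 transmembrane chains, 2 multiplexins, 2 short-chain network collagens and 3 others. Col10a1 was not analysed here. RNA-seq had been carried out on C57BL/6 mouse fetuses at 9.0 days post coitum, with 3 wild-type (WT) libraries and 3 from fetuses overexpressing KLF12, a zinc-finger transcription factor; the stated question was how excess KLF12 gives rise to defects of the neural tube. The promoter that drives KLF12, the number of founder lines and whether a library holds 1 fetus or several are not given in the sources used here. The p-values therefore measure only how these 6 samples vary, and part of that may be technical.

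Collagens are trimers of chains that wind into a triple helix through repeats that begin with glycine. Fibrillar collagens are cut from procollagen and assemble into fibrils in connective tissue and cartilage, type IV collagen forms the sheet that underlies epithelia and vessels together with laminin, and the fibril-associated chains decorate fibril surfaces. At this stage of mouse development mesenchyme, somites, the notochord and the basement membranes of the neural tube and surface ectoderm are the main known sites of collagen expression.

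Levels are given as FPKM, fragments per kilobase of transcript scaled to the number of mapped fragments, which allows genes to be compared with each other. Klf12 itself was at 1.99, 2.11 and 1.32 FPKM in WT libraries 1 to 3 and at 16.4, 15.2 and 23.9 in KLF12 libraries 1 to 3. The log2 difference in log2(FPKM + 1) was 2.78 ± 0.22 (SE; limma adjusted p = 0.00113), and the exact two-sided permutation test over the samples gave p = 0.1, the smallest that 3 against 3 allow. All KLF12 libraries lay above all WT libraries, so the labels matched the overexpressed gene. From the step that 1 fragment makes in low values, the depth was estimated at 16700000 to 18100000 fragments per library. KLF12 library 3 was unlike the rest. Its FPKM values summed to 528236 against 598031 to 635381, and its correlations with the other libraries were 0.951 to 0.959 against 0.956 to 0.978 among those. Its deviation from the WT level correlated with transcript length at a Spearman rho of 0.421 across 11674 genes, against -0.222 and 0.047 in KLF12 libraries 2 and 1 (genes are no independent replicates). A mean over all 6 libraries of 1 FPKM or more was required for the test; 25 collagen genes reached it and 18 lay under it.

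No collagen chain gene was called different between the groups: 0 of 25 passed an adjusted p of 0.05 in limma (89 of 12141 genes did, 0.733%, with 0.634% lower and 0.0988% higher), and 3 had an unadjusted p under 0.05 (10.9% of all genes did). Of the 25, 16 had a negative and 9 a positive log2 difference, KLF12 minus WT, with a median of -0.26. Over all genes 52.7% were negative and 47.3% positive, and the median was -0.016. Col1a1, Col6a2 and Col9a3 lay below -0.5, as did 5.9% of all genes. The groups did not overlap for 5 members: Col1a1, Col6a1, Col6a2 and Col9a3 were lower in every KLF12 library than in every WT library (8.98% of all genes were), and Col27a1 was higher (7.9% of all genes were). Col6a2 and Col9a3 reached the mean of 1 FPKM required for the test only through WT. That selection partly fixes their direction, so their part in these counts is a description. The sign of the median rested on KLF12 library 2: without it 11 of 25 differences were negative and the median was 0.043, and without KLF12 library 3 there were 21 of 25 and -0.31. As these are bulk samples, fewer cells of a type and less RNA per cell cannot be told apart in any of these values.

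**Figure D1:**
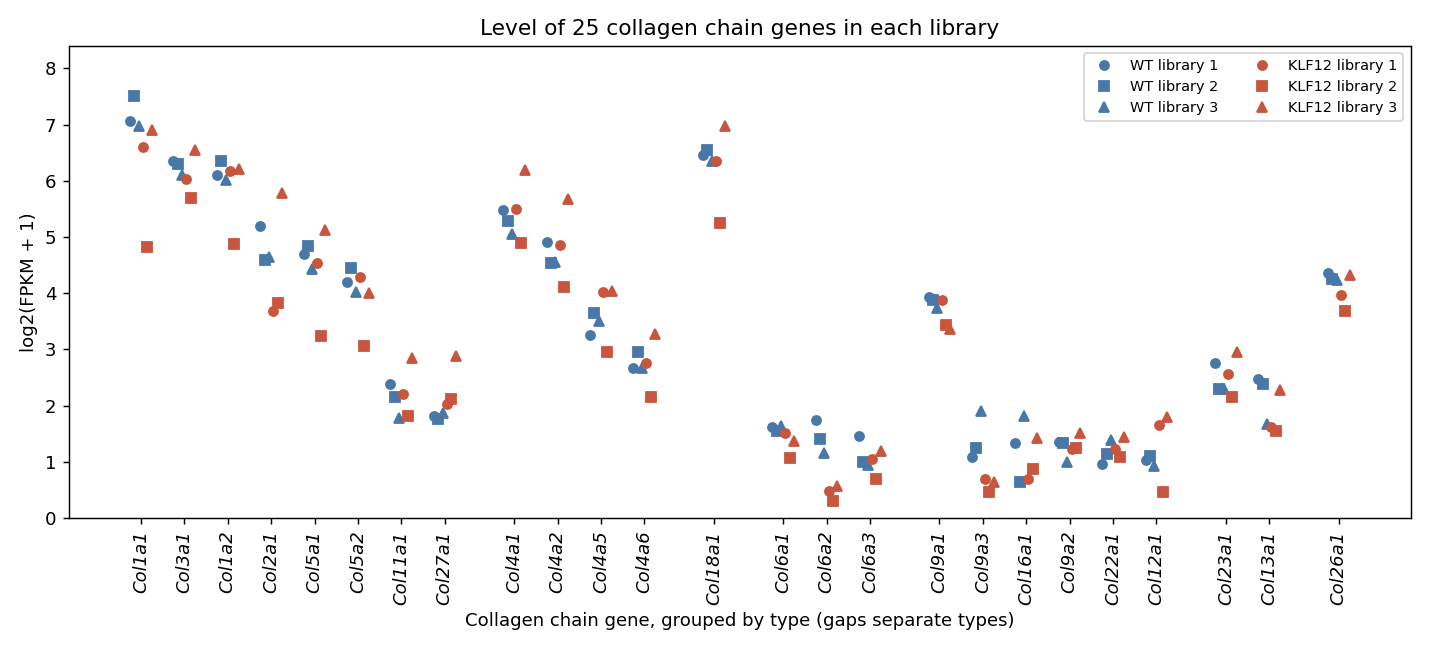
Level of the 25 tested collagen chain genes in each library, as log2(FPKM + 1) on the vertical axis, with genes grouped by type on the horizontal axis. Blue symbols are the 3 WT and red symbols the 3 KLF12 libraries; KLF12 library 2 (squares) is the lowest of the 6 libraries for 18 genes and KLF12 library 3 (triangles) the highest for 14.

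The fibrillar chains made up most of the collagen signal. Col1a1, the alpha 1 chain of type I collagen and the most abundant member in WT, was at 133, 180 and 125 FPKM in WT libraries 1 to 3 and at 96.3, 27.3 and 119 in KLF12 libraries 1 to 3. Every KLF12 library was below the lowest WT library, but library 3 only by a small margin and library 2 by far. The log2 difference was -1.07 ± 0.46 (SE; limma adjusted p = 0.435), with a 95% interval from -2.10 to -0.043, and without KLF12 library 2 it was -0.43. Its partner Col1a2, the alpha 2 chain of the type I trimer, was at 68.02, 80.4 and 63.8 FPKM in WT and at 71.7, 28.4 and 73.4 in the KLF12 libraries. For Col1a2 only KLF12 library 2 lay outside the WT range, and the difference was -0.40 ± 0.32 (SE; limma adjusted p = 0.731).

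Col3a1, the homotrimeric collagen of soft tissue and vessel walls, was at 80.7, 77.6 and 68.04 FPKM in WT and at 64.1, 50.7 and 92.4 in the KLF12 libraries, and the groups overlapped. Col5a1 and Col5a2, chains of the type V collagen that starts fibrils and sets their diameter, averaged 24.3 ± 3.50 and 17.8 ± 2.78 FPKM in WT (SD, n = 3) and 21.5 ± 12.7 and 13.6 ± 5.74 in the KLF12 group. Here too library 2 was the lowest of the 6, at 8.47 and 7.32 FPKM. Neither was called, with log2 differences of -0.35 and -0.44 (limma adjusted p = 0.836 and 0.654).

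Col2a1, the main fibrillar collagen of notochord sheath and cartilage and a target of SOX9, was at 35.6, 22.98 and 24.04 FPKM in WT and at 11.8, 13.2 and 54.2 in KLF12 libraries 1 to 3. Libraries 1 and 2 lay below all WT libraries and library 3 above them. The log2 difference was -0.38 ± 0.48 (SE; limma adjusted p = 0.862). Without KLF12 library 1 or 2 it was -0.0034 or -0.073 (limma adjusted p = 0.998 and 0.963). Without KLF12 library 3 it was -1.055, with a limma adjusted p of 0.0438, in a fit that called 2.63% of all genes, 1.9% lower and 0.725% higher. With library weights estimated from the data it was -0.95 (limma adjusted p = 0.0382), in a fit that called 13.1% of all genes, 8.44% lower and 4.61% higher, and that gave KLF12 library 3 the lowest weight. Markers of sclerotome, the somite compartment that forms cartilage, summed to 43.2 to 49.3 FPKM in WT and to 14.5, 36.8 and 29.7 in KLF12 libraries 1 to 3, with 0 of 5 tested markers called and 5 of 5 negative. Most of this sum came from Meox1, at 33.2 to 33.9 FPKM in WT and at 10.25, 27.8 and 23.6 in KLF12 libraries 1 to 3. Pax9 and Nkx3-2, under the mean required for the test, averaged 0.84 and 0.18 FPKM in WT and 0.777 and 0.377 in KLF12 fetuses. Notochord markers summed to 535 to 615 FPKM in WT libraries and to 302 to 556 in KLF12 libraries. Of 6 tested, 0 were called, 4 were negative and 2 positive. Most of that sum came from the keratins Krt8, Krt18 and Krt19, with WT means of 291, 201 and 55.9 FPKM. Shh and Foxa2, a signal and a transcription factor of notochord and floor plate that were singled out after their values were seen, had differences of the other sign. Shh averaged 2.75 FPKM in WT and 8.50 in KLF12 fetuses, and Foxa2 2.05 and 6.03. Their log2 differences were 1.43 and 1.17 (limma adjusted p = 0.158 and 0.185). In both, every KLF12 library was above every WT library, as in 7.9% of all genes. Krt8 and Krt19 were lower in every KLF12 library than in every WT library, as 8.98% of all genes were. Their log2 differences were -0.72 and -0.68 (limma adjusted p = 0.307 and 0.238). The marker T averaged 16.9 and 14.2 FPKM with overlapping groups (log2 difference -0.27, limma adjusted p = 0.765). No marker of either list was at 0 in all libraries, and their part in the Col2a1 values was not tested.

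Col11a1, which joins type II collagen in cartilage fibrils, averaged 3.37 ± 0.893 FPKM in WT fetuses and 4.12 ± 1.92 in KLF12 fetuses (SD, n = 3; log2 difference 0.18 ± 0.30, limma adjusted p = 0.897). Col27a1, a fibrillar chain of developing cartilage, was the member with the highest positive difference. It was at 2.52, 2.40 and 2.66 FPKM in WT and at 3.07, 3.33 and 6.36 in the KLF12 libraries. All 3 KLF12 libraries lay above the WT range, which was narrow, and library 3 was the highest of them. The difference of 0.52 ± 0.26 (SE) was not called (limma adjusted p = 0.518), and its interval ran from -0.066 to 1.11. Without KLF12 library 3 the difference was 0.25.

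The type IV chains and the multiplexin Col18a1 represent the basement membrane. Before their values, the starts of the type IV genes are shown, because these genes lie head to head in pairs and the chains of a pair end up in the same trimer. In RefSeq (GRCm38.p6, a later build than the mm9 named for the data), the first exons of Col4a1 and Col4a2 overlap by 22 bases at chr8:11312805-11312826, while the starts of Col4a5 and Col4a6 are 1343 bases apart on chromosome X. The shared bases are printed from each gene's own strand, followed by the stretches before the Col4a5 start (chrX:141475169-141475384, plus strand) and the Col4a6 start (chrX:141474077-141474326, minus strand), without bases of annotated exons. Capitals mark CACCC, the core that KLF proteins are known to bind, and GGGCGG, the GC box, each on either strand.
Col4a2: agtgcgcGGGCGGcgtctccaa
Col4a1: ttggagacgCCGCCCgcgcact
Col4a5: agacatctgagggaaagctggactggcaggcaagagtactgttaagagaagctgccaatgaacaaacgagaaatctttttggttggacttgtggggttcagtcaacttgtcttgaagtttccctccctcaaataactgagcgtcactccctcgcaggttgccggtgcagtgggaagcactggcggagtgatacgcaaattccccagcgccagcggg
Col4a6: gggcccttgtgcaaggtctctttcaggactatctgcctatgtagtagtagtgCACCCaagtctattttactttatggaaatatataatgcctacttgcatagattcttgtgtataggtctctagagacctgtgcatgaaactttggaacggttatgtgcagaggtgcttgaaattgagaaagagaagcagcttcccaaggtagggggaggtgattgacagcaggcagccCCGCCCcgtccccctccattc

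A GC box stands in the bases that Col4a1 and Col4a2 share, 1 CACCC and 1 GC box precede Col4a6, and the printed stretch before Col4a5 holds neither, although its full RefSeq window, which reaches into exons, has a GC box. Of the 43 members, 34 had a promoter window in RefSeq, running from 250 bases before the start to 50 after it. Col1a1 and Col2a1 were among the members without one. CACCC was in a window of 26 of these 34 (76.5%), against 59.8% of 27025 genes. Those 27025 were all genes with a window, measured here or not, and were not matched for GC content. GGGCGG was in 22 (64.7%) against 38.2%, CCAAT in 13 (38.2%) against 41.1%, and TATAAA in 4 (11.8%) against 15.7%. Both strands were read for each motif, the first 3 of these motifs can overlap each other by 2 bases, TATAAA and the CCAAT box can overlap by 1, and a gene with several windows counted once. These matches describe letters in the windows and are not binding sites.

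Col4a1 was at 43.7, 37.9 and 32.3 FPKM in WT and at 43.98, 28.6 and 72.3 in KLF12 libraries 1 to 3. Col4a2 was at 29.1, 22.1 and 22.6 FPKM and at 27.9, 16.3 and 49.9. In both genes library 2 lay below and library 3 above the WT range, and library 1 near or within it. The log2 differences were 0.25 ± 0.29 and 0.21 ± 0.33 (SE; limma adjusted p = 0.837 and 0.894), and both turned negative without KLF12 library 3, at -0.083 and -0.19. The ratio of Col4a1 to Col4a2 stayed within a narrow band, at 1.501, 1.71 and 1.43 in WT and 1.58, 1.76 and 1.45 in the KLF12 libraries. Across the 6 libraries that ratio ran from 1.43 to 1.76, while Col4a1 itself ran from 28.6 to 72.3 FPKM.

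Col4a5 and Col4a6, the X-linked pair, were lower. Col4a5 was at 8.51, 11.5 and 10.4 FPKM in WT and at 15.2, 6.72 and 15.4 in the KLF12 libraries. Thus 2 of the KLF12 values were above and 1 below the WT range, with a difference of 0.20 ± 0.29 (SE; limma adjusted p = 0.881) that was 0.025, 0.56 and 0.016 without KLF12 library 1, 2 and 3. Col4a6 averaged 5.85 ± 0.794 and 5.98 ± 2.62 FPKM (SD, n = 3), a log2 difference of -0.038 with an interval from -0.66 to 0.58. The ratio of Col4a5 to Col4a6 was 1.58, 1.703 and 1.93 in WT and 2.63, 1.94 and 1.78 in the KLF12 libraries, so the groups overlapped. Col4a3 and Col4a4, chains of the mature kidney glomerulus, were at 0 to 0.08 and 0 to 0.03 FPKM.

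Col18a1, a heparan sulfate collagen of basement membranes whose end fragment is endostatin, was the second most abundant member in WT. It was at 87.3, 93.1 and 80.5 FPKM in WT and at 81.2, 37.3 and 125 in the KLF12 libraries. Library 1 lay within the WT range, library 2 below and library 3 above it, and the difference of -0.26 ± 0.35 (SE; limma adjusted p = 0.875) had an interval from -1.05 to 0.54. Col15a1, the other multiplexin, was under the test level at 0.39 to 0.76 FPKM in WT libraries and 0.3 to 0.51 in KLF12 libraries.

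Type VI collagen forms beaded filaments from 3 different chains, so the 2 neighbouring chromosome 10 genes Col6a1 and Col6a2 encode partners in 1 trimer. Col6a2 was at 2.35, 1.66 and 1.23 FPKM in WT and at 0.39, 0.23 and 0.49 in KLF12 libraries 1 to 3. The groups did not overlap, and the KLF12 mean was 0.212 of the WT mean. The log2 difference was -0.99 ± 0.27 (SE), with an interval from -1.60 to -0.37, and it was not called (limma adjusted p = 0.194); with the library weights it was -0.96 (limma adjusted p = 0.0280). The gene passed the test level only through its WT values, and the KLF12 values correspond to an estimated 20 to 39 fragments per library against 102 to 199 in WT.

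Col6a1 was at 2.09, 1.93 and 2.11 FPKM in WT and at 1.87, 1.09 and 1.58 in the KLF12 libraries. All KLF12 values were lower, but by much less than for Col6a2 (log2 difference -0.29 ± 0.23, limma adjusted p = 0.739). The ratio of Col6a1 to Col6a2 was 0.889, 1.16 and 1.72 in WT and 4.79, 4.74 and 3.22 in the KLF12 libraries. Every KLF12 ratio exceeded the highest WT ratio. Col6a3, the long partner chain, averaged 1.23 ± 0.460 FPKM in WT and 0.990 ± 0.340 in KLF12 fetuses (SD, n = 3), with overlapping groups, and Col6a4, Col6a5 and Col6a6 were at 0 to 0.04 FPKM in all libraries.

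The stretches before the Col6a1 start (chr10:76726169-76726294) and the Col6a2 start (chr10:76623631-76623880), both on the minus strand of GRCm38.p6 in RefSeq and outside annotated exons, were picked for printing after the values of both genes were seen. Capitals again mark CACCC and GGGCGG on either strand.
Col6a1: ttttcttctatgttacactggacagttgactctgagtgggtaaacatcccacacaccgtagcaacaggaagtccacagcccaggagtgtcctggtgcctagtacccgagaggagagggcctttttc
Col6a2: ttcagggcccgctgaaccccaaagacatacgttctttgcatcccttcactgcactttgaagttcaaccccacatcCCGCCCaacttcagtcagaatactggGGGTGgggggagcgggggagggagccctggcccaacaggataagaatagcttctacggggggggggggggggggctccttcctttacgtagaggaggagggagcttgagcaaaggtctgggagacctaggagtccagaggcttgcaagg
The Col6a2 stretch of 250 bases holds 1 match to CACCC and 1 to GGGCGG, and the 126 bases before Col6a1 hold neither, although the full Col6a1 window has a CACCC.

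Among the fibril-associated chains, type IX collagen is a trimer of Col9a1, Col9a2 and Col9a3 products that sits on type II fibrils. Col9a3 was at 1.12, 1.38 and 2.76 FPKM in WT and at 0.61, 0.38 and 0.56 in the KLF12 libraries. The groups did not overlap, the KLF12 mean was 0.295 of the WT mean, and WT library 3 was far above the other WT libraries. The difference of -0.82 ± 0.30 (SE) was not called (limma adjusted p = 0.347), and Col9a3 too passed the test level only through WT. Col9a1 was at 14.2, 13.7 and 12.4 FPKM in WT and at 13.7, 9.83 and 9.29 in the KLF12 libraries, with KLF12 library 1 inside the WT range (limma adjusted p = 0.625). Col9a2 was at 1.36 ± 0.312 and 1.53 ± 0.289 FPKM (SD, n = 3). The 3 genes of this trimer thus had log2 differences of -0.29, 0.10 and -0.82, and the ratio of Col9a1 to Col9a3 was 12.7, 9.95 and 4.49 in WT and 22.5, 25.9 and 16.6 in the KLF12 libraries.

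Col12a1, a large chain that binds fibrils under tension, was at 1.05, 1.16 and 0.91 FPKM in WT and at 2.14, 0.38 and 2.46 in the KLF12 libraries, 2 values above and 1 below the WT range. Col16a1 and Col22a1 overlapped between the groups, with log2 differences of -0.27 and 0.091 (limma adjusted p = 0.868 and 0.945). The transmembrane chains Col13a1 and Col23a1 averaged 3.67 ± 1.29 and 4.52 ± 1.07 FPKM in WT fetuses and 2.61 ± 1.08 and 5.04 ± 1.64 in KLF12 fetuses (SD, n = 3), with adjusted p of 0.735 and 0.934 in limma. Col26a1, a secreted collagen known mainly from testis and ovary, was at 19.6, 17.95 and 17.9 FPKM in WT and at 14.7, 11.8 and 19.03 in the KLF12 libraries. KLF12 library 3 was at the upper end of the WT range and the difference was -0.29 ± 0.18 (SE; limma adjusted p = 0.626).

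**Figure D2:**
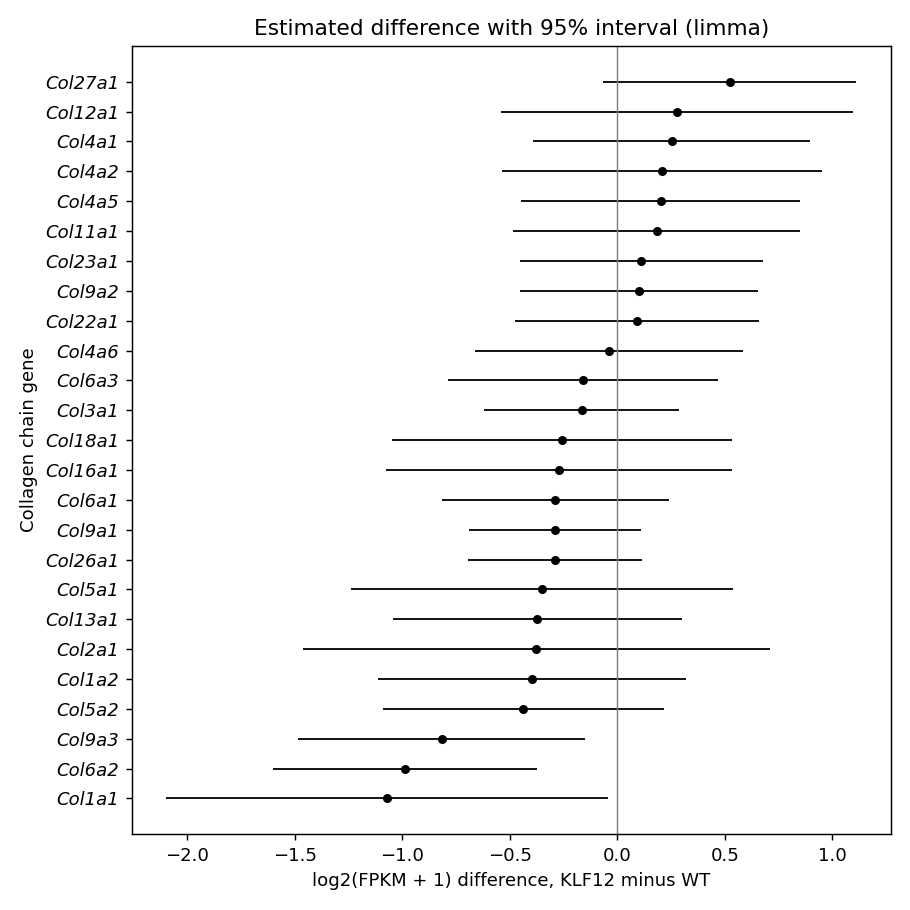
Log2(FPKM + 1) difference, KLF12 minus WT, for each of the 25 tested collagen chain genes, with points for the estimate and bars for the 95% interval from limma. The intervals of Col1a1, Col6a2 and Col9a3 do not reach 0, and those of the other 22 genes cross it; no gene was called after adjustment over all genes. Col6a2 and Col9a3 reached the test level only through WT, which partly fixes their direction.

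The other 12 of the 18 members under the test level were Col5a3, Col11a2 and Col24a1 among fibrillar chains, Col14a1, Col19a1 and Col20a1, Col17a1 and Col25a1, Col8a1 and Col8a2, and Col7a1 and Col28a1. Of these Col8a2 came closest to it, at 0.78 to 1.42 FPKM in WT libraries and 0.13 to 1.38 in KLF12 libraries, a mean of 0.880. Just above the level were Col6a2, Col6a3 and Col9a3, with means of 1.06, 1.11 and 1.14 FPKM. The lowest were Col6a5, Col6a6, Col4a4, Col6a4 and Col28a1, each listed at 0 in at least 4 libraries. Col17a1, a hemidesmosome collagen of epidermis, was at 0 to 0.20 FPKM, and Col5a3 at 0.04 to 0.13 FPKM in WT libraries and 0.02 to 0.03 in KLF12 libraries, which is an estimated 2 to 14 fragments per library.

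Collagen genes deviated together by library within the KLF12 group. KLF12 library 2 had the lowest value of the 6 libraries for 18 of 25 genes, where it did so for 21.04% of all tested genes. KLF12 library 3 had the highest value for 14 of 25, against 30.4% of all genes. The order library 2, library 1, library 3 from low to high was seen in 17 of 25 collagen genes (68.0%) and in 24.5% of all genes. Relative to the WT mean of each gene, the median collagen deviation was 0.066, 0.031 and -0.14 in WT libraries 1 to 3 and -0.0072, -0.56 and 0.29 in KLF12 libraries 1 to 3, while the median of all tested genes lay between -0.054 and 0.041 in every library.

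The spread of collagen genes within a group was wider in the KLF12 fetuses. The median SD of log2(FPKM + 1) was 0.212 for the 25 genes in WT and 0.470 in the KLF12 group, beside 0.143 and 0.260 over all tested genes. The SD was larger in the KLF12 group for 18 of 25 collagen genes (72.0%) and for 71.8% of all genes, so that share was near the one over all genes. Collagen transcripts are long, and the length trends differed between these libraries. With each library's trend with transcript length removed, the collagen medians were -0.44 in KLF12 library 2 and 0.083 in library 3, and with the trend with GC content removed they were -0.45 and 0.21. For KLF12 library 1 the medians were 0.023 and 0.118 after these removals. The deviation from the WT level correlated with GC content at a Spearman rho of -0.232, -0.225 and 0.128 in KLF12 libraries 1 to 3. The 2 trends were removed separately and never together, and the cause of the differences between libraries was not tested.

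**Figure D3:**
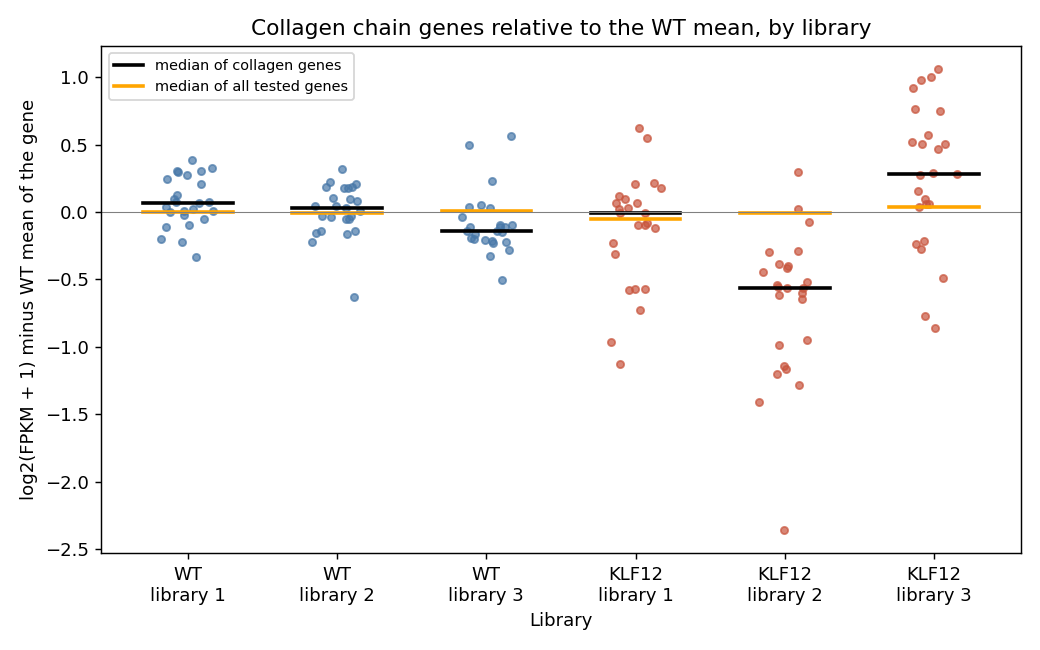
Each point is 1 of the 25 tested collagen chain genes, plotted by library on the horizontal axis and by its log2(FPKM + 1) minus the WT mean of that gene on the vertical axis; horizontal jitter has no meaning. Black lines are the medians of the collagen genes, -0.56 in KLF12 library 2 and 0.29 in library 3, and orange lines the medians of all tested genes, which stay near 0.

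Summed over all 43 members, collagen FPKM was 602, 641 and 526 in WT libraries 1 to 3 and 514, 269 and 730 in KLF12 libraries 1 to 3, or 0.0858% to 0.107% of all FPKM in WT and 0.0837%, 0.0424% and 0.138% in the KLF12 libraries. Fibrillar chains summed to 369 ± 46.5 and 279 ± 131 FPKM (SD, n = 3) and type IV chains to 78.6 ± 8.06 and 98.2 ± 45.9. Fibrillar sums were below the WT range in KLF12 libraries 1 and 2 and within it in library 3. Type IV sums were below it in library 2 and above it in libraries 1 and 3. Type VI chains summed to 4.27 to 6.23 FPKM in WT libraries and to 1.98 to 3.36 in KLF12 libraries, without overlap. Of their 3 tested members, Col6a3 overlapped between the groups. Col6a2, which reached the test level only through WT, moved most, from a mean of 1.75 FPKM to 0.370. No share of non-overlapping sums over other sets of genes was computed. Markers of decidua, the maternal tissue around the embryo, summed to 121 to 134 FPKM in WT libraries and 95.3 to 124 in KLF12 libraries. Among them Prl8a2, singled out after its values were seen, was at 10.2 FPKM in KLF12 library 2 and 9.56 in WT library 3 and at 0.3 to 1.13 in the other 4. Cyp11a1 was at 2.02 FPKM in KLF12 library 2 and 5.03 in WT library 3 and at 0 to 0.56 in the other 4. Other markers of the list differed: in KLF12 library 2 Wnt4 had its lowest value, 2.46 FPKM, and Des was at 17.05, below its WT values of 20.5 to 22.5. Parietal endoderm markers, of a cell type that makes type IV collagen and laminin, summed to 251 to 276 FPKM in WT and to 295, 205 and 289 in KLF12 libraries 1 to 3. This list includes the matrix genes Sparc, Lamb1 and Lama1, which also stand among the basement membrane partners below. Sparc and Lamb1, with WT means of 112 and 38.0 FPKM, gave much of the sum. In KLF12 library 2 they were at 69.8 and 26.7 FPKM, so the sum is no separate measure of that cell type. Primitive erythroid markers summed to 5131 to 11699 FPKM in WT libraries and 1337 to 4264 in KLF12 libraries, and visceral endoderm and yolk sac markers to 146 to 552 and 459 to 693. Endothelial markers summed to 120 to 127 and 138 to 145 FPKM. All 11 tested erythroid markers had negative log2 differences (median -1.31), and all 12 yolk sac markers had positive ones (median 1.15). Positive differences were found for 2 of 9 tested decidual, 8 of 11 parietal endoderm and 9 of 10 endothelial markers. None of these 5 lists had a called gene, which does not show equal tissue content. None of their markers was at 0 in all libraries, and their part in the collagen levels was not tested.

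Ratios between partner chains take out whatever moves both in a library. The ratio of Col1a1 to Col1a2, whose products join in type I collagen at 2 to 1, was 1.96, 2.24 and 1.96 in WT and 1.34, 0.963 and 1.63 in the KLF12 libraries. The KLF12 mean, 1.31 ± 0.333, was 0.638 of the WT mean, 2.05 ± 0.163 (SD, n = 3), and the groups did not overlap. The Col1a1 transcript had a GC content of 58.9% and the Col1a2 transcript 55.7%, and the difference in log2 ratio, -0.68, was -0.68 with the GC trend removed and -0.69 with the length trend removed. For Col5a1 to Col5a2 the ratio was 1.33 to 1.43 in WT and 1.198, 1.16 and 2.25 in the KLF12 libraries, on both sides of WT. For Col11a1 to Col2a1 it was 0.102 to 0.150 in WT and 0.304, 0.191 and 0.115 in the KLF12 libraries, which overlapped. The groups were therefore apart for type I, type VI and type IX pairs and overlapped for the type V pair, the type II and XI pair and both type IV pairs. No test was made of these ratios, and no share of non-overlapping ratios over other gene pairs was computed. The split of the pairs therefore has no background to be read against. The type VI and type IX ratios rest on Col6a2 and Col9a3, which reached the test level only through WT, so that selection partly fixes their direction and they are given as a description.

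**Figure D4:**
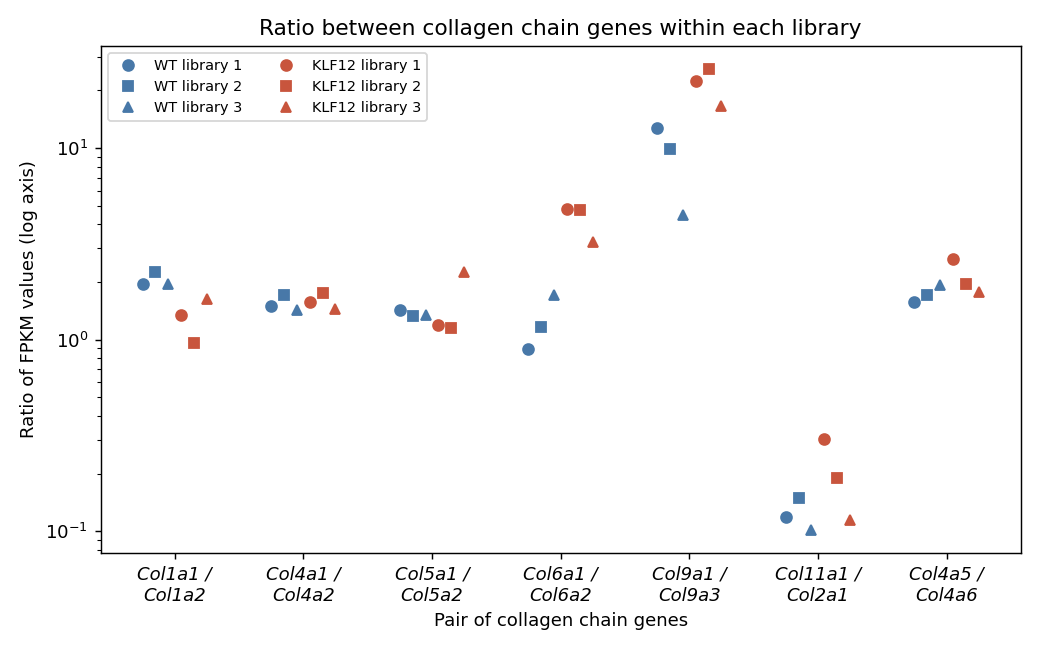
Ratio of FPKM values between partner collagen chain genes within each library, on a log axis, for 7 pairs; blue symbols are WT and red symbols KLF12 libraries. The Col1a1 to Col1a2 ratio is lower and the Col6a1 to Col6a2 and Col9a1 to Col9a3 ratios are higher in all 3 KLF12 libraries than in any WT library, while Col4a1 to Col4a2 stays between 1.43 and 1.76.

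The genes that make, export, cross-link, bind and degrade collagen were examined in 8 lists with 92 tested genes. In limma 0 of the 92 were called, and 14 had an unadjusted p under 0.05, beside 10.9% of all genes. With the library weights 18 were called, in the fit that called 13.1% of all genes. Of 18 modification and folding genes, 11 had positive and 7 negative differences (median 0.027). P4ha1, a catalytic subunit of the prolyl 4-hydroxylase that stabilises the triple helix, was at 35.2, 32.4 and 30.2 FPKM in WT and at 72.5, 44.9 and 49.2 in the KLF12 libraries. P4ha3, another catalytic subunit, was at 0.42, 1.95 and 0.67 FPKM in WT and at 3.17, 3.08 and 2.59 in the KLF12 libraries. In both the KLF12 libraries were above all WT libraries, and neither was called (log2 differences 0.72 ± 0.18 and 1.04 ± 0.31, SE; limma adjusted p = 0.149 and 0.228). In this list 3 genes were lower and 4 higher without overlap between the groups, beside 8.98% and 7.9% of all genes. Genes named here and for the other lists had the smallest p, so that choice partly fixed whether their groups were apart.

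In procollagen export, 8 of 10 differences were negative (median -0.099). Creb3l1, a transcription factor for secretory genes including Col1a1 in bone, averaged 9.35 ± 0.749 FPKM in WT fetuses and 6.25 ± 2.27 in KLF12 fetuses, and Sar1b, a COPII coat GTPase, at 57.4 ± 4.41 and 43.5 ± 10.2 (SD, n = 3). For both genes every KLF12 library was below every WT library, and limma gave adjusted p of 0.444 and 0.441. Propeptide removal and cross-linking genes were split, 5 positive and 4 negative of 9, and led by the proteinase enhancers Pcolce and Pcolce2 with overlapping groups (limma adjusted p = 0.574 and 0.616).

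Basement membrane partners, 5 positive and 8 negative of 13, summed to 357 to 401 FPKM in WT and to 348, 202 and 487 in KLF12 libraries 1 to 3. This order of the KLF12 libraries was also that of the type IV and of the fibrillar sums, and 24.5% of all genes had it. In WT the order differed from that of the type IV sums. Lama5, the laminin chain of many embryonic basement membranes, was at 13.9 to 18.2 FPKM in WT and at 7.26, 3.44 and 21.4 in KLF12 libraries 1 to 3 (limma adjusted p = 0.602). Its log2 difference of -0.81 was -1.44 without KLF12 library 3 (limma adjusted p = 0.0433) and -0.27 without library 2 (0.797).

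Interstitial matrix partners had 8 positive and 6 negative differences of 14 (median 0.024). Lum, a small proteoglycan that spaces collagen fibrils, was at 29.7, 27.8 and 28.1 FPKM in WT and at 20.3, 19.2 and 18.03 in the KLF12 libraries, with little spread in either group and no overlap, and a log2 difference of -0.55 ± 0.13 (SE; limma adjusted p = 0.11). Tnc, the matrix glycoprotein tenascin C, was at 1.48, 1.76 and 1.84 FPKM in WT and 4.69, 2.93 and 5.45 in the KLF12 libraries (0.96 ± 0.24, limma adjusted p = 0.154). The differences of these 2 genes had opposite signs, and neither passed the threshold.

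Of 4 tested collagen receptor genes, 3 had positive differences. Itgb1, the beta chain of collagen-binding integrins, and Ddr1, a receptor tyrosine kinase for collagen, overlapped between the groups (limma adjusted p = 0.761 and 0.879). Among 9 degradation genes, 4 positive and 5 negative, Mmp11, a metalloproteinase of remodelling stroma, was at 10.2, 9.01 and 6.79 FPKM in WT and at 3.8, 5.51 and 4.79 in the KLF12 libraries, without overlap (limma adjusted p = 0.188), and the inhibitor Timp3 overlapped (0.593). Among 15 regulators of collagen genes, 8 positive and 7 negative, Tgfb2, a growth factor that induces collagen synthesis in many cells, was at 3.30, 3.34 and 2.89 FPKM in WT and at 7.02, 4.98 and 5.45 in the KLF12 libraries (limma adjusted p = 0.208). Prrx1, a mesenchymal homeobox factor, was at 11.7 ± 0.712 and 8.35 ± 1.55 FPKM (SD, n = 3; limma adjusted p = 0.371). In both the groups did not overlap.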

How the data were processed

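The authors deposited 1 table of FPKM values rounded to 2 decimals, with a column for each of the 6 libraries, per the file headers. The submitters' processing notes list the mm9 build and the tools RSEM 1.2.8, HISAT2 2.0.4 and CASAVA without saying what each did. Of 17741 rows, 16874 matched an NCBI gene number in the RefSeq gene table (GRCm38.p6). The groups were compared on log2(FPKM + 1) with limma 3.58.1 (R 4.3.3, intensity trend, two-sided) over 12141 genes whose mean reached 1 FPKM, calling a Benjamini-Hochberg adjusted p under 0.05; this scale understates changes of low genes. The fit was also run on simulated data, drawn as independent normal values with the same SD in both groups for each gene. These lacked the wider KLF12 spread and the length and GC trends, so they do not show how the fit behaves here. Transcript length and GC came from the longest GENCODE M21 transcript, found for all 43 members. Depth was estimated from single-transcript genes with 150 bases taken off their length (coherence 0.253 to 0.356, at most 0.191 in 100 shuffles of the lengths); whole fragments were not recovered, so no count test was run, and fragment numbers are rough. Named are Klf12, each collagen gene reaching that mean (the rest by range) and, since 0 pathway genes were called, the 2 of smallest p in each list. Not all genes this rule names are given here. Alternatives covered the pseudocount, filter, scaling, variance model, library weights (limma's array weights), length and GC trends, a replicate block and each library left out. The members and lists were chosen with earlier results of these data known.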

Additional observations from a re-analysis of the deposited data

How the results depend on the processing

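With 3 libraries a group, a count of 0 collagen genes does not show that levels were equal, and members with few estimated fragments are imprecise. The collagen count was 2 with array weights (Col2a1 and Col6a2; KLF12 library 3 had a weight of 0.206), and 0 to 1 with each replicate left out; the 11 other alternatives gave 0. Pathway genes called were 18 with array weights and 0 to 2 with each replicate left out. Over all genes, 29 were called without a filter, 55 as TPM, 1585 with array weights, 146 with the length trend removed, 173 at an adjusted p under 0.1 and 14 to 319 with each replicate left out. The cause was not tested. Klf12 kept its direction and call in every alternative run. Same-numbered libraries deviated with correlations of 0.027, -0.107 and 0.036, so the numbers share no visible pairing; with the replicate block 64 genes and 0 collagen genes were called.

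Leaving out each replicate gave log2 differences on both sides of 0 for Col4a1 (-0.083 to 0.57), Col4a2 (-0.19 to 0.59), Col4a6 (-0.31 to 0.25; 0.016 with the GC trend removed), Col6a3 (-0.27 to 0.0037), Col16a1 (-0.59 to 0.0093), Col9a2 (-0.014 to 0.16), Col22a1 (-0.0084 to 0.20), Col3a1 (-0.39 to 0.032), Col1a2 (-0.63 to 0.043), Col5a1 (-0.76 to 0.18), Col11a1 (-0.10 to 0.42), Col18a1 (-0.65 to 0.21), Col23a1 (-0.085 to 0.31) and Ddr1 (-0.12 to 0.48). It moved the difference by over 1.5 times with no change of sign for Col1a1 (-1.47 to -0.43), Col2a1 (-1.055 to -0.0034), Col4a5 (0.016 to 0.56), Col5a2 (-0.69 to -0.075), Col6a1 (-0.39 to -0.16), Col9a1 (-0.45 to -0.19), Col12a1 (0.031 to 0.69), Col13a1 (-0.62 to -0.22), Col26a1 (-0.45 to -0.13), Col27a1 (0.25 to 0.68), Creb3l1 (-0.77 to -0.29), Itgb1 (0.037 to 0.39), Lama5 (-1.44 to -0.27), Pcolce (-0.41 to -0.18), Pcolce2 (-0.75 to -0.31), Sar1b (-0.55 to -0.22) and Timp3 (0.20 to 0.55). The Col1a1 to Col1a2, Col6a1 to Col6a2 and Col9a1 to Col9a3 ratio differences kept their sign with each replicate left out and with the length trend, the GC trend or the quantiles normalized. The GC trend and the ratio alternatives, and the Col4a5 to Col4a6 pair, were chosen after seeing the data.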
